A study of Mus musculus with 64 samples.

Results

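10 immediate early genes, Fos, Fosb, Junb, Egr1, Egr2, Egr4, Npas4, Nr4a1, Arc and Ier2, were followed in RNA from the striatum of 32 mice that had just been on the elevated plus maze. They were chosen by name, through the match of Entrez gene identifiers to symbols, from the 27179 identifiers counted. All 10 were matched and all 10 passed the filter on low counts, with between 49 and 9317 reads per gene and mouse.

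Immediate early genes are transcribed within minutes of a strong synaptic input, because the kinases and factors that switch them on, such as CREB and the serum response factor, are already present in the resting neuron. Most encode transcription factors that go on to change later genes, whereas Arc acts at the synapse itself. In the striatum their RNA is a common readout of recent neuronal activity, including exploration of a new place.

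The mice carried Cyfip2 genotype N/- (8 males and 8 females) or N/N (8 males and 8 females) on a C57BL/6NJ background and were 82 to 84 days old. N is the C57BL/6N allele of Cyfip2, which is known to carry a missense change, and the minus sign stands for a null allele, so that no mouse had an allele free of either change. The labels call N/- mice resistant to binge eating and N/N mice prone to it, and they name no diet. Punches were taken on Day 24 directly after 5 min on the maze, and no mouse without the maze was analysed here, so that the values are levels after the test and not changes caused by it. Litters are not labelled, so p-values measure the spread between these mice, some of which may share a litter.

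Each mouse gave 28.8 to 33.8 mega counts over 2 sequencing runs. Lane set A held mice 1 to 16 (10 N/- and 6 N/N) and lane set B mice 17 to 32 (6 N/- and 10 N/N), and the sets shared no cage. Cyfip2, a subunit of the WAVE complex that drives actin branching, had 509 to 653 CPM (counts per mega counts) in N/- mice and 928.5 to 1278 CPM in N/N mice, with no overlap. All 15 striatal projection neuron markers were found, with a summed level of 8484 to 17270 CPM per mouse. Markers of cortical glutamatergic neurons, which a striatal punch should hold little of, summed to 414 to 1672 CPM in N/- mice and 461 to 991 CPM in N/N mice. Mouse 3, labelled an N/N female, had 36 reads of Xist, against at least 27239 in the other females and at most 598 in males (leaving it out brought no call among the members).

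Promoter sequences are shown for Fos, Npas4 and Egr2, the members that differed most between mice, for Nr4a1, which also varied widely, and for Fosb, which differed least. They are the 250 bases before the RefSeq start on GRCm38.p6, written in the direction of transcription. Capitals mark TGACG or its reverse complement CGTCA, the core of the cAMP response element that CREB binds, the CArG box that serum response factor binds (Egr2) and TATAAA (Fos).
Fos (chr12:85473640-85473889, plus strand): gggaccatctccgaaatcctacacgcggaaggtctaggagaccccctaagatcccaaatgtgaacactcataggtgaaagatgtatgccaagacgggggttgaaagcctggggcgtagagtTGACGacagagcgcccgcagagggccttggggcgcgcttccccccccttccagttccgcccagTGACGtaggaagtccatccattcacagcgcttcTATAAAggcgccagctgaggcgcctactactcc
Fosb (chr7:19310046-19310295, minus strand): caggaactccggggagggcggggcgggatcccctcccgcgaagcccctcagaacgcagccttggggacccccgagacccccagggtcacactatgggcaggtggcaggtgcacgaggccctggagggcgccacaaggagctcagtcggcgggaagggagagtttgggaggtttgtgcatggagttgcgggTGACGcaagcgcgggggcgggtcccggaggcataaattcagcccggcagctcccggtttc
Egr2 (chr10:67537619-67537868, plus strand): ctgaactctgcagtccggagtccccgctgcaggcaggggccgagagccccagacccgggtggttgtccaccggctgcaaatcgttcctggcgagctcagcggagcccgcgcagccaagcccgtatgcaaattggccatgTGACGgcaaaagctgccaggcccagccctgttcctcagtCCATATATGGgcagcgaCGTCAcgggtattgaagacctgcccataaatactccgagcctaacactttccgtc
Npas4 (chr19:4989972-4990221, minus strand): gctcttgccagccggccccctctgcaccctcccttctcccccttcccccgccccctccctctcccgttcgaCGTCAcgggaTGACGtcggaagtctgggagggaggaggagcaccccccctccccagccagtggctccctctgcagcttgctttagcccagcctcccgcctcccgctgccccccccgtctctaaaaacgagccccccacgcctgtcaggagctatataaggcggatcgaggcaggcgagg
Nr4a1 (chr15:101266596-101266845, plus strand): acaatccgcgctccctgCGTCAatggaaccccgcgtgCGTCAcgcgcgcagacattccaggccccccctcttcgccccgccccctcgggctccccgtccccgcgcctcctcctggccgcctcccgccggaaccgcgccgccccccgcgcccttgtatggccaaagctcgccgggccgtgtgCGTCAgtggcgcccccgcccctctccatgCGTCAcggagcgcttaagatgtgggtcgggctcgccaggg

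TGACG lay on either strand of all 5 windows shown, and also of the Junb and Egr4 windows. Of the 5 windows listed for Egr2, 3 held it, each of them with a CArG box as well, and the one shown is among these. These 3 windows overlap and hold the same matches. Across 32851 RefSeq windows of this length, 17.8% held it. Counted in bases before the start to the leftmost base of the match, it lay at 129 and 66 in Fos, at 60 in Fosb, at 111 and 55 in Egr2, at 179 and 169 in Npas4 and at 233, 213, 69 and 40 in Nr4a1. None of the 7 members with a window held the full palindrome TGACGTCA, which contains TGACG and was found in 1.55% of all windows. A CArG box was found in 4 of the 5 windows listed for Egr2, of which the 3 that overlap share the same box. It was found in no window of the other 6 members, against 1.47% of all windows. TATAAA was found only in the Fos window, 33 bases before the start, against 12.4% of all windows. GCGGGGGCG, the site that EGR proteins bind, was found in the Fosb and Nr4a1 windows, against 2.57% of all windows, and TGACTCA, the AP-1 site, in none of the members' windows, against 4.46%. Such matches describe the letters in a short window and are not evidence of binding. Egr1, Arc and Ier2 are named without a sequence.

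The members differed widely in level. Per kilobase of transcript, Egr1 was highest with 34.6 ± 8.91 CPM per kb (SD, n = 32), followed by Arc with 24.7 ± 10.1 CPM per kb, Nr4a1 with 16.1 ± 6.54 CPM per kb and Junb with 15.9 ± 4.88 CPM per kb. A middle pair was formed by Npas4 with 6.30 ± 3.98 CPM per kb and Egr4 with 5.796 ± 1.46 CPM per kb. The lowest members were Fosb with 2.52 ± 0.365, Fos with 2.47 ± 1.87, Ier2 with 1.75 ± 0.365 and Egr2 with 1.49 ± 0.919 CPM per kb. The order depends on the transcript lengths used, which are from GENCODE whereas reads were counted per Entrez gene. Not every step in it held from mouse to mouse. Arc lay above Nr4a1, Junb above Npas4 and Egr4 above Fosb in 32 of 32 mice, and Egr1 above Arc in 30 of 32. Nr4a1 and Junb could not be ordered (Nr4a1 was higher in 16 of 32 mice), nor could Npas4 and Egr4 (12 of 32), Fosb and Fos (20 of 32) or Fos and Ier2 (17 of 32).

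The members also differed in how much they varied between mice. Fos, the partner of JUN proteins in the AP-1 transcription factor, ran from 1.73 CPM in mouse 22 to 17.6 CPM in mouse 8, a 10.2-fold range, with a median of 3.53 CPM. Npas4, a neuron-specific factor induced by calcium entry, ran from 6.43 CPM in mouse 5 to 55.1 CPM in mouse 16, an 8.57-fold range. Egr2, a zinc finger factor also known from Schwann cells, ran from 1.51 CPM in mouse 32 to 12.6 CPM in mouse 2, an 8.32-fold range. These 3 genes lay in the upper tail of all genes tested. With the means of genotype, sex and lane set removed, their log2 levels had an SD of 0.95 (Fos), 0.89 (Npas4) and 0.82 (Egr2), at ranks 49, 74 and 111 of 16776 genes.

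Nr4a1, an orphan nuclear receptor, covered 22.8 to 108.5 CPM (4.76-fold) and Arc, the synaptic protein that drives removal of AMPA receptors, 45.5 to 168 CPM (3.70-fold). Junb, which pairs with FOS proteins, covered 17.7 to 60.8 CPM (3.44-fold) and Egr1, the most abundant of the zinc finger factors here, 93.8 to 288 CPM (3.07-fold). Egr4, of the same family, covered 7.76 to 22.7 CPM (2.92-fold). The SD of these 5 genes after removal of group means was 0.33 to 0.52 on the log2 scale. At least 95.8% of the 500 genes nearest in mean level had a smaller SD than each of the 8 members named so far.

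The other two members varied little. Ier2, a nuclear protein of the first wave, covered 1.79 to 3.99 CPM (2.23-fold), with an SD of 0.28 that exceeded 63.0% of the 500 genes nearest in level. Its 2 sequencing runs differed by a median of 0.276 on the log2 scale within a mouse. This is a difference between single runs and that SD is of summed runs, so the 2 values are not like measures. Fosb, whose shortened product accumulates in the striatum under repeated stimulation, covered 7.15 to 12.7 CPM (1.78-fold), with an SD of 0.20 that exceeded 71.2%. Runs of 1 mouse differed by 0.181 for Fosb and by 0.03 to 0.151 (medians) for the other 8 members.

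**Figure D1:**
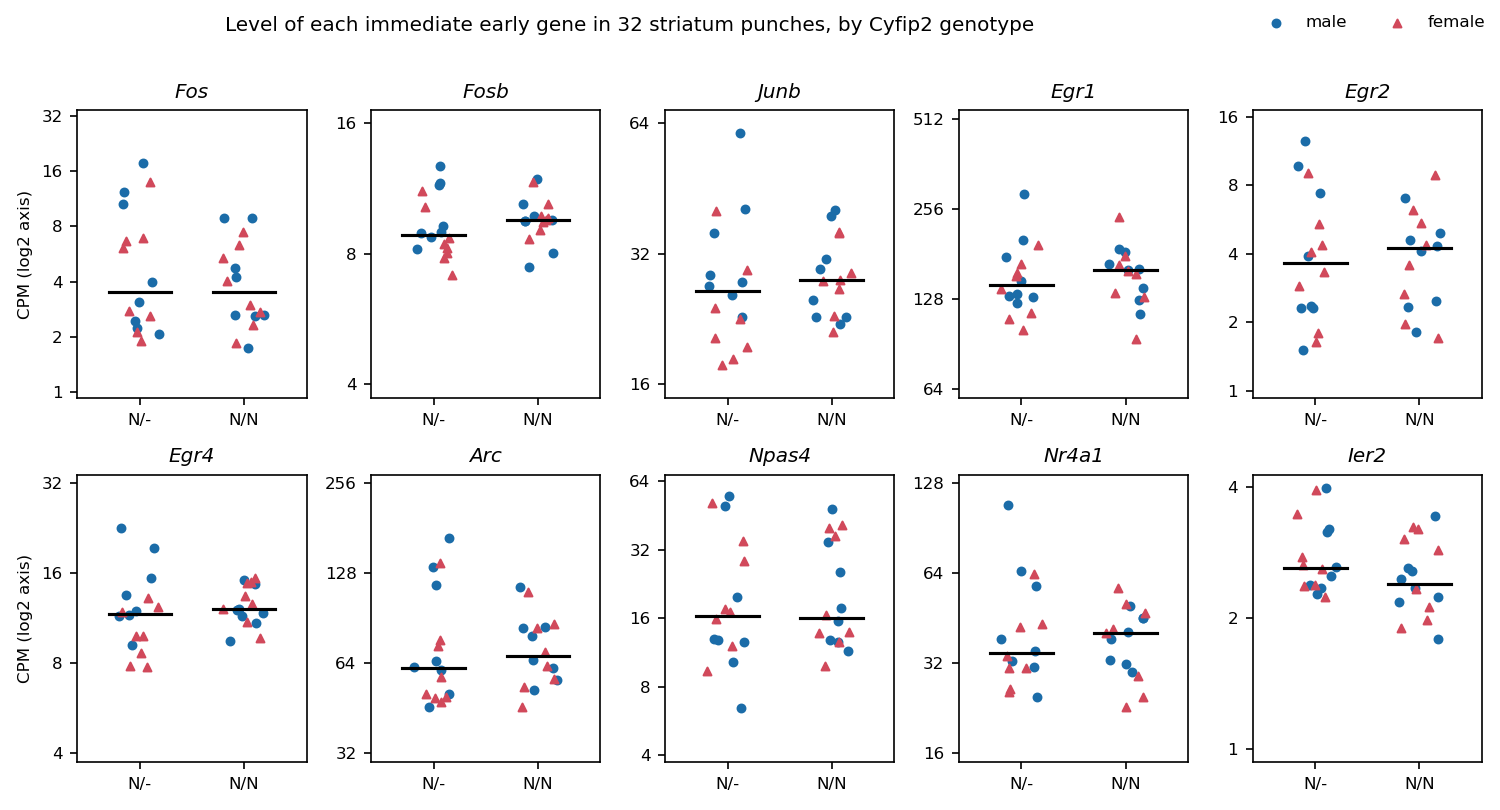
Level of each member (CPM, log2 axis) in 16 N/- and 16 N/N mice. Each point is 1 mouse (circles, males; triangles, females) and the bar is the group median. The groups overlap in every panel, and the highest Fos value, 17.6 CPM, and the highest Npas4 value, 55.1 CPM, are N/- males.

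The first comparison asked whether the Cyfip2 genotype changed the levels found after the maze. None of the 10 members passed the test of N/- against N/N (edgeR quasi-likelihood F test, Benjamini-Hochberg adjusted over 16776 genes, threshold 0.05), and limma and DESeq2 called 0 as well. No member had an unadjusted p under 0.05, against 1083 of all 16776 genes (edgeR). Across all genes the test called 0.0119%, the 2 genes Cyfip2 (log2 fold change -0.84, SE 0.04, adjusted p = 4.934e-15) and En2, a homeobox gene (log2 fold change 1.32, SE 0.11, adjusted p = 3.351e-09). En2 was low in both groups, with a mean of 2.80 CPM in N/- and 1.17 CPM in N/N mice. The source of the reads assigned to it was not tested. Among the members 6 had a positive and 4 a negative log2 fold change, with a median of 0.03, against -3.95e-05 over all genes tested. In bulk tissue, fewer cells of a type and less RNA per cell cannot be told apart.

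Of the AP-1 genes, Fos had 1.89, 3.53 and 17.6 CPM (lowest, median and highest) in N/- mice, against 1.73, 3.51 and 8.91 CPM in N/N mice. The medians were nearly equal, and the higher N/- mean came from the top of the range, where 4 N/- mice lay above every N/N mouse. Its means were 6.08 ± 4.96 CPM in N/- and 4.34 ± 2.40 CPM in N/N mice (SD, n = 16 each), a log2 fold change of 0.41 (SE 0.35, adjusted p = 0.881, edgeR) whose 95% interval spans 0.827-fold to 2.13-fold. The estimate moved both ways in other fits. It was 0.11 without mouse 30 and 0.19 with limma voom on all mice. With a score of cortical markers as a covariate it was 0.52 (SE 0.35), and with cage as a fixed block 0.61 (SE 0.42). Fosb had 7.15, 8.84 and 12.7 CPM in N/- mice, against 7.46, 9.58 and 11.9 CPM in N/N mice, with full overlap and a log2 fold change of -0.09 (SE 0.07, adjusted p = 0.876, edgeR). This was the narrowest estimate, with an interval of 0.856-fold to 1.04-fold. Junb had 17.7, 26.3 and 60.8 CPM in N/- mice, against 21.2, 27.8 and 40.3 CPM in N/N mice. Here the N/- mice held both the lowest and the highest value, and the interval ran from 0.817-fold to 1.21-fold.

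The EGR genes overlapped in the same way. Egr1 had 100.4, 143 and 288 CPM in N/- mice, against 93.8, 159 and 241 CPM in N/N mice, with an interval of 0.807-fold to 1.14-fold. Egr2 had 1.51, 3.64 and 12.6 CPM in N/- mice, against 1.71, 4.23 and 8.87 CPM in N/N mice, with an interval of 0.684-fold to 1.54-fold. Egr4 had 7.76, 11.7 and 22.7 CPM in N/- mice, against 9.46, 12.1 and 15.4 CPM in N/N mice, with an interval of 0.789-fold to 1.09-fold. In each of the 3 genes the N/N range lay mostly inside the N/- range, and the SD of the N/- mice was the larger (45.9 against 34.4 CPM for Egr1, 3.32 against 2.04 CPM for Egr2, 4.06 against 1.94 CPM for Egr4). A difference in spread was not tested.

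Npas4 had 6.43, 16.4 and 55.1 CPM in N/- mice, against 9.90, 16.1 and 48.6 CPM in N/N mice, and its interval of 0.653-fold to 1.56-fold is close in width to that of Egr2. Nr4a1 had 24.7, 34.6 and 108.5 CPM in N/- mice, against 22.8, 40.5 and 56.9 CPM in N/N mice, with an interval of 0.835-fold to 1.38-fold. Arc had 45.5, 61.5 and 168 CPM in N/- mice, against 45.5, 67.8 and 115.5 CPM in N/N mice, with an interval of 0.800-fold to 1.35-fold. Ier2 had 2.24, 2.61 and 3.99 CPM in N/- mice, against 1.79, 2.40 and 3.44 CPM in N/N mice, with an interval of 0.940-fold to 1.25-fold. None of these 4 genes separated the genotypes, and a fold of 2 in either direction lay outside the interval of every member except Fos.

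Within lane sets the picture was the same for the calls, while several small estimates changed sign. Fos had a log2 fold change (N/- over N/N) of 0.60 (SE 0.42) in lane set A and 0.15 (SE 0.49) in lane set B. Ier2 had 0.36 (SE 0.16) in lane set A and -0.07 (SE 0.12) in lane set B, and Egr4 had 0.09 (SE 0.18) and -0.30 (SE 0.12). No member passed the test in either set. Markers of other cells moved with genotype without passing it: 10 of 11 cortical markers were higher in N/- (median log2 fold change 0.32, none called), all 15 projection neuron markers were lower (median -0.15, none called) and all 12 endothelial and mural markers were lower (median -0.06, none called). With the cortical score as a covariate no member was called, while the genotype estimate moved up in every member except Ier2. Npas4 went from 0.01 to 0.23 (SE 0.31), Egr2 from 0.04 to 0.17 (SE 0.29) and Arc from 0.05 to 0.16 (SE 0.18). Ier2 went from 0.12 to 0.04 (SE 0.10). Correlations of the members with scores of these markers are given below. The part of the markers in the genotype estimates was otherwise not tested.

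The comparison of males with females gave no call among the 10 members, against 0.107% of all genes (18 genes, edgeR). Limma and DESeq2 also called 0 members. No member had an unadjusted p under 0.05, against 899 of all 16776 genes (edgeR). Junb had the smallest unadjusted p, with 22.04, 28.1 and 60.8 CPM (lowest, median and highest) in males against 17.7, 25.3 and 40.2 CPM in females, and a log2 fold change of 0.26 (SE 0.14, adjusted p = 0.964, edgeR). Egr4 followed, with 9.22, 11.97 and 22.7 CPM in males against 7.76, 12.02 and 15.4 CPM in females and a log2 fold change of 0.18 (SE 0.11, adjusted p = 0.992, edgeR). In both genes the sexes overlapped over most of their range. The estimate was positive in 7 members and negative in 3, with a median of 0.12, against -0.0027 over all genes. Within lane sets the sign was not stable. The estimate was positive for every member in lane set A, and in lane set B only for Junb and Egr4. Fos had a log2 fold change (male over female) of 0.87 (SE 0.41) in lane set A and -0.59 (SE 0.49) in lane set B. Nr4a1 had 0.73 (SE 0.23) and -0.33 (SE 0.19), and Arc had 0.64 (SE 0.24) and -0.26 (SE 0.24). No member passed the test in either set.

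**Figure D2:**
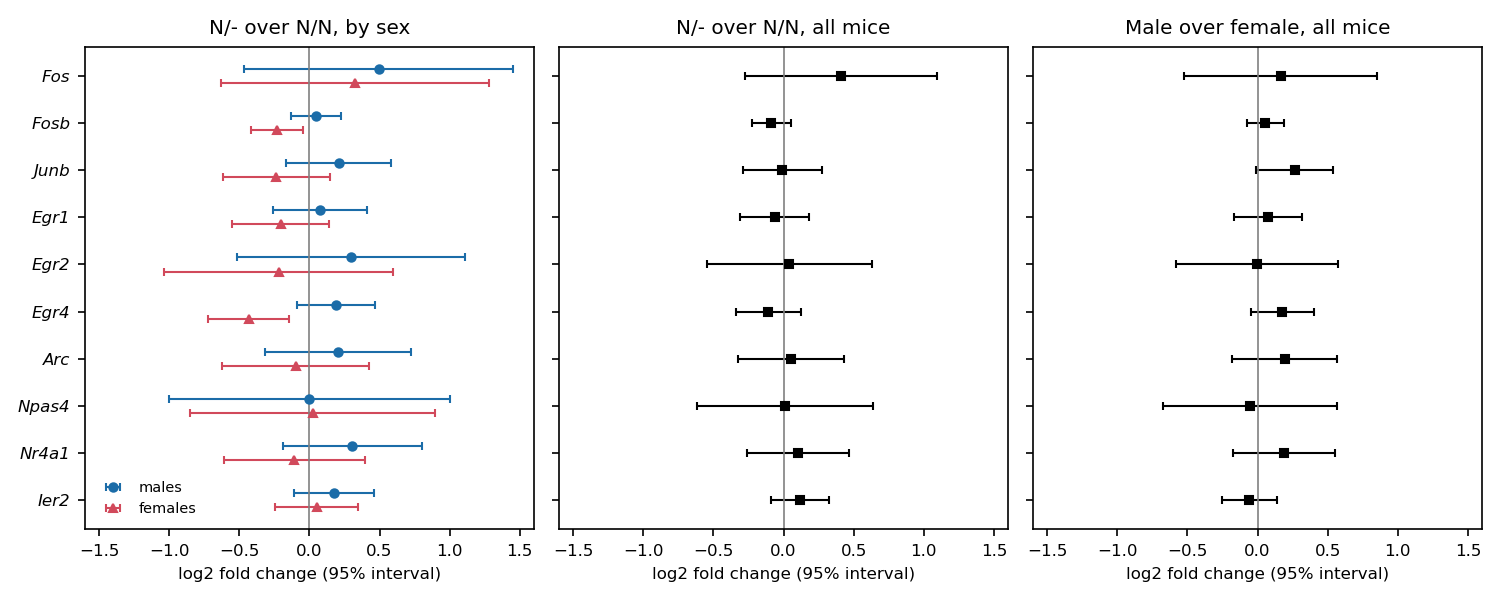
Log2 fold change of each member with its 95% interval, from the left for N/- over N/N in males (circles) and females (triangles), for N/- over N/N in all mice and for males over females in all mice. Every interval of the middle and right panels includes 0, and in the left panel only those of Fosb and Egr4 in females do not.

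The effect of genotype was also compared between the sexes. None of the 10 members passed the test of the genotype by sex interaction, which called 0 of 16776 genes (edgeR; 292 genes had an unadjusted p under 0.05, and limma and DESeq2 called 0 as well). The difference was positive, that is the log2 fold change of N/- over N/N was larger in males than in females, in 9 of 10 members, with a median of 0.29, against 0.00034 over all genes. The members move together between mice, so these 9 signs are not 9 independent observations. Egr4 had the largest difference, 0.62 (SE 0.20, unadjusted p = 0.0039, adjusted p = 1, edgeR). In males Egr4 had 9.22, 12.7 and 22.7 CPM (lowest, median and highest) in N/- mice, against 9.46, 11.9 and 15.2 CPM in N/N mice. In females it had 7.76, 9.86 and 13.2 CPM in N/- mice, against 9.72, 13.01 and 15.4 CPM in N/N mice. Both pairs overlapped, with the N/- median above that of N/N in males and below it in females.

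By unadjusted p, Fosb came next, with a difference of 0.27 (SE 0.13, unadjusted p = 0.041, adjusted p = 1, edgeR). Its medians were 9.12 CPM in N/- and 9.54 CPM in N/N males, and 8.35 CPM in N/- and 9.64 CPM in N/N females. Within the sexes no member was called, against 0.0119% of all genes in each sex (2 genes, Cyfip2 and En2). The interaction of Egr4 was 0.93 (SE 0.29) in lane set A and 0.18 (SE 0.25) in lane set B. That of Fos was 1.05 (SE 0.83) in lane set A and -1.84 (SE 0.89) in lane set B. Over the 10 members the interaction was positive in 9 in lane set A and in 3 in lane set B.

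Lane set A was compared with lane set B because the genotypes were unevenly divided between them. No member was called, against 0.161% of all genes (27 genes; edgeR, limma and DESeq2 alike called 0 members). That gene count was unstable, at 8 without mouse 3, 72 without mouse 15, 92 with DESeq2 and 100 with the cortical score as a covariate. Fosb was the 1 member with an unadjusted p under 0.05, against 1839 of all 16776 genes (edgeR). It had 7.15, 9.93 and 12.7 CPM (lowest, median and highest) in set A against 8.01, 9.04 and 10.4 CPM in set B. Its log2 fold change was 0.15 (SE 0.07, adjusted p = 0.430, edgeR). Its values were more spread in set A, on both sides of those in set B. Egr2 had the largest estimate, 0.44 (SE 0.31), with medians of 4.21 CPM in set A and 2.58 CPM in set B. All 8 clock genes that rise and fall with Dbp were lower in set A (median log2 fold change -0.19, lowest -0.63, none called). Of these 8 genes, 7 had an unadjusted p under 0.05 (edgeR). Correlations of the members with a clock score are given below, and its part in the lane set estimates was not tested.

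Most members varied together from mouse to mouse. Over 32 mice, log2 CPM of Fos had a Pearson r of 0.91 with Arc (Spearman rho 0.90), 0.86 with Egr2 (rho 0.87), 0.79 with Npas4 (rho 0.74) and 0.77 with Nr4a1 (rho 0.79). It had 0.74 with Egr1 (rho 0.81), 0.73 with Junb (rho 0.66), 0.63 with Egr4 (rho 0.66) and 0.56 with Fosb (rho 0.51). For Arc, Egr2, Npas4, Nr4a1, Egr1 and Junb the permutation p of r was 1e-05, the smallest that 100000 resamples can give, and 1.5e-05 adjusted over the 9 relations. For Egr4 p was 6e-05 (adjusted 7.71e-05) and for Fosb 0.00086 (adjusted 0.000968), and the permutation p of rho was at most 0.00342 for these 8 genes (adjusted 0.00385). All 8 relations held without mice 8 and 30, the farthest from the median of Fos, with r of 0.89 for Arc, 0.85 for Egr2, 0.73 for Npas4, 0.74 for Nr4a1, 0.76 for Egr1, 0.71 for Junb, 0.64 for Egr4 and 0.61 for Fosb.

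Ier2 stood apart. Its r with Fos was 0.35 (rho 0.30, permutation p = 0.048 for r and 0.0969 for rho, both unchanged by the adjustment), and 0.22 without mice 8 and 30 (permutation p = 0.235), so that the relation rested on those mice. The relation of Fosb with Fos was found in lane set A (r = 0.76, adjusted permutation p = 0.00135, n = 16) and not in lane set B (r = 0.16, adjusted permutation p = 0.544, n = 16), where Fosb covered only 8.01 to 10.4 CPM. Egr4 likewise had r of 0.79 in set A (adjusted permutation p = 0.00045, n = 16) and 0.39 in set B (adjusted permutation p = 0.169, n = 16). The relations of Arc, Egr2, Npas4, Nr4a1, Egr1 and Junb with Fos passed within both sets, with r of 0.72 to 0.94. Whether r differed between the sets was not tested.

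**Figure D3:**
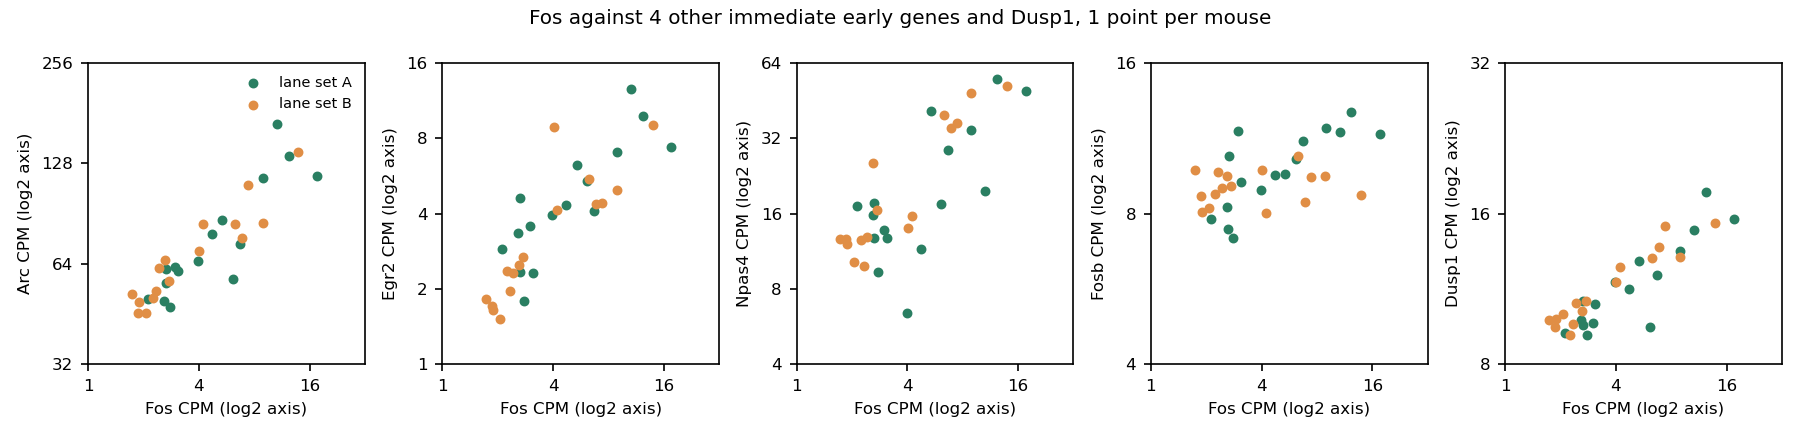
Fos (CPM, log2 axis) against Arc, Egr2, Npas4, Fosb and Dusp1 (CPM, log2 axes), 1 point per mouse, coloured by lane set. Arc, Egr2, Npas4 and Dusp1 rise with Fos in both lane sets, and the Fosb points of lane set B lie flat between 8.01 and 10.4 CPM.

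Over all 45 pairs of members r was positive in 44 and ran from -0.01 (Egr1 and Ier2) to 0.91 (Fos and Arc), with a median of 0.63. The second closest pair was Egr1 and Egr2 (r = 0.90). Without Fosb and Ier2 the 28 pairs left had r of 0.39 to 0.91, and the lowest was Egr4 with Npas4. Fosb went most closely with Egr4 (r = 0.80) and less with the others (median of 9 pairs 0.60). For Ier2 the median of 9 pairs was 0.14. With the means of genotype, sex and lane set removed the median r was 0.66. The members also share library and depth in each mouse, which removing these means leaves in place. The leading principal component of the 10 genes held 65.9% of their variance, with loadings of 0.29 to 0.37 for 9 members and 0.08 for Ier2, and the next component, with 11.1%, was led by Ier2 (loading 0.83).

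**Figure D4:**
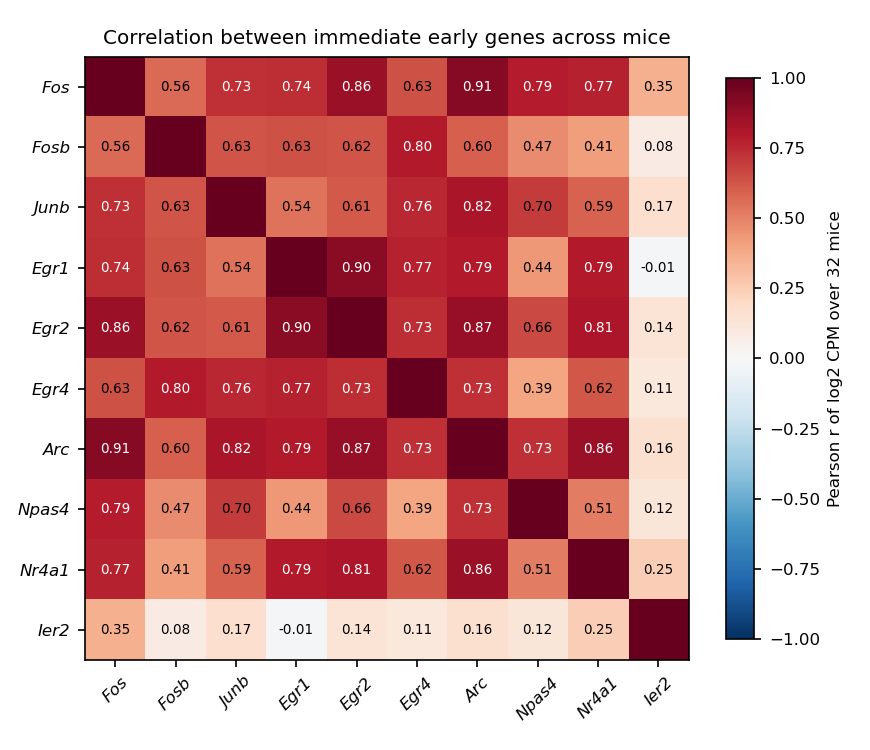
Pearson r of log2 CPM over 32 mice for each pair of members (colour and number). All pairs outside the Ier2 row and column are at 0.39 or above, and Ier2 reaches at most 0.35, with Fos.

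Single mice show how far the shared movement goes. Mice 16 and 8, both N/- males, were among the 8 highest for all 10 members, and mouse 6, an N/N male, for 9. Mouse 19, an N/- female, was among the 8 lowest for all 10. Exceptions were as plain. Mouse 2, an N/- male, had the highest Egr1, Egr2, Egr4, Arc and Nr4a1 of all mice, with 288, 12.6, 22.7, 168 and 108.5 CPM, yet ranked 12 for Npas4 with 19.8 CPM and 20 for Ier2. Mouse 31, an N/N female, ranked 2 for Egr1 with 241 CPM and 4 for Egr2 but 28 for Junb with 21.2 CPM. Mouse 4, an N/- female, had the lowest Fosb, 7.15 CPM, and the next to highest Ier2, 3.94 CPM.

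**Figure D5:**
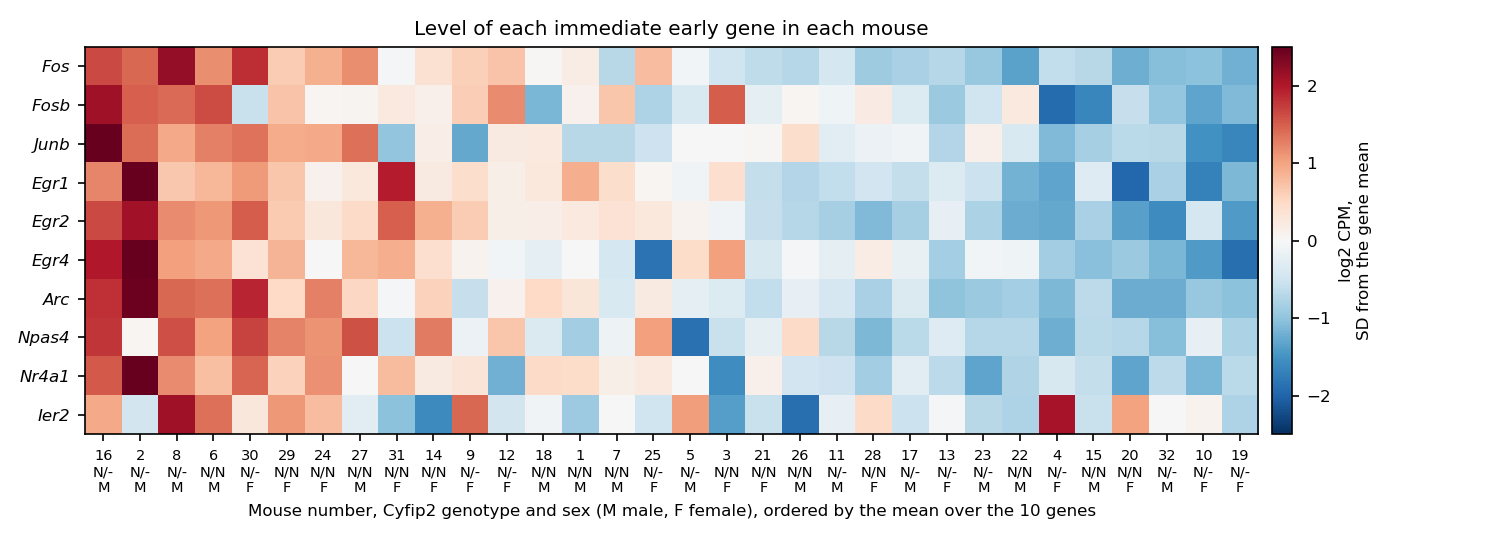
Log2 CPM of each member in each mouse, in SD from the gene's mean (red high, blue low). Mice run from the highest mean over the 10 genes (mouse 16) to the lowest (mouse 19), with genotype and sex (M male, F female) under each number. N/- and N/N mice are found along the whole order, and the Ier2 row follows it least.

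Mice of 1 cage were not closer to each other in Fos than mice of other cages. For 13 pairs of cage mates of the same sex and lane set the median absolute difference in Fos was 1.16 on the log2 scale, against 0.94 for 101 such pairs from different cages, and cage mates were closer in 6 of 10 members. In the cage of mice 30 (N/-), 28 and 29 (N/N), all females, Fos was 13.9 CPM in mouse 30, 2.33 CPM in mouse 28 and 6.31 CPM in mouse 29. Among males, Fos was 12.3 CPM in mouse 16 (N/-) and 2.65 CPM in its cage mate, mouse 15 (N/N). Arc followed, with 135 CPM in mouse 16 and 56.0 CPM in mouse 15. Pairs share mice, so no test was run.

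Genes outside the members that moved most like them were ranked by the r of residual log2 CPM with the mean of the standardised members, over 32 mice and 14659 genes with a mean of at least 1 CPM. Dusp1, the phosphatase that switches off MAP kinases, ranked first with r = 0.91 (0.91 in each lane set), at 9.14 to 17.7 CPM. Arl4d, a small GTPase, followed with r = 0.75, and Dusp6, a phosphatase of ERK, with r = 0.71. Next came Irf2bp2 (0.68), Ttc9c (0.67), Cited2 (0.67), Btg2, an antiproliferative primary response gene (0.67), Ccn1, a secreted matrix protein (0.65), Cmtr2 (0.65) and Rgs2, a regulator of G protein signalling (0.65). For comparison, the median r over all candidates was 0.0090 and 0.314% of them had an r over 0.5.

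By list, the genes grouped here as feedback regulators had a median r of 0.47, with 7 of 16 over 0.5 (Dusp1, Arl4d, Dusp6, Rgs2, Spry2, Ppp1r15a and Sik1). Other primary response regulators had a median r of 0.19, with 1 of 15 over 0.5 (Btg2). Among close relatives of members, Egr3 had r = 0.37 (rank 318 of 14659 genes), Nr4a3 0.20, Jun 0.06 and Nr4a2, the relative of Nr4a1 known from dopamine neurons, -0.45. Activity-induced effectors had a median r of 0.03, with 1 of 14 over 0.5 (Ccn1), and Bdnf, the neurotrophin that the cortex supplies to the striatum, had -0.34. Upstream factors had a median r of -0.04 with none of 15 over 0.5, although Srf, which encodes serum response factor, had 0.47 and Creb1 -0.06. These are descriptions, and the lists overlap with genes known to answer the same signals. The lists were also chosen with earlier results of these data known, so their r can be high in part by choice.

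None of these pathway genes was called by genotype. In N/- against N/N, the genes with the smallest p were Klf6 (log2 fold change 0.14, SE 0.08) and Ier3 (-0.11, SE 0.06) of 17 other primary response regulators tested, and Spry2 (-0.07, SE 0.04) and Rgs2 (-0.11, SE 0.08) of 17 feedback regulators. Nrn1, which encodes the activity-induced surface protein neuritin, had 0.55 (SE 0.21, adjusted p = 0.767, edgeR) and Vgf -0.15 (SE 0.09) of 14 effectors. Elk4 had 0.17 (SE 0.08) and Mef2a 0.08 (SE 0.04) of 15 upstream factors. The medians of the 4 lists lay between -0.0025 and 0.013. In the comparison of lane set A with lane set B, 1 pathway gene was called, Csrnp1, a nuclear protein induced with the primary response genes, with a log2 fold change of -0.28 (SE 0.06, adjusted p = 0.0372, edgeR). Its call held in 17 of 32 fits that left out 1 mouse, with log2 fold changes of -0.31 to -0.25, and was lost without mouse 1, 2, 3, 5, 7, 9, 12, 17, 18, 19, 21, 23, 25, 27 or 32 (adjusted p of 0.0503 to 0.0945, edgeR). No gene of the 4 lists was called by sex or by the genotype by sex interaction.

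The members were also set against 6 scores, each the mean of standardised log2 CPM over a list: cortical, projection neuron, choroid plexus, endothelial and mural, glucocorticoid-induced and clock genes. By Pearson r, 0 of 60 relations passed after adjustment and 14 had an unadjusted p under 0.05 (permutation test, 100000 resamples). The closest was Ier2 with the projection neuron score (r = -0.56, adjusted permutation p = 0.0504, rho -0.39). Its r was -0.37 without mice 4 and 9, the farthest from the median of the score. It was -0.67 in lane set A and -0.14 in lane set B (adjusted permutation p = 0.149 and 0.782). Npas4 with the cortical score had r = -0.49 (adjusted permutation p = 0.0909) and rho = -0.59 (adjusted permutation p = 0.0276), the 1 relation that passed by rank. It was -0.47 without mice 4 and 9, -0.44 in lane set A and -0.69 in lane set B, where neither set passed after adjustment (adjusted permutation p = 0.448 and 0.204). Junb with the cortical score had r = -0.48 (rho -0.51, adjusted permutation p = 0.0909 for r). Of the other scores, the strongest r was 0.47 for choroid plexus (with Nr4a1; 0.08 without mice 2 and 23), 0.42 for endothelial and mural (with Egr1), -0.45 for clock (with Ier2) and 0.23 for glucocorticoid-induced genes (with Npas4), and none of these passed after adjustment.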

How the data were processed

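Striatal RNA of 32 mice was analysed from 64 tables, 2 sequencing runs per mouse. The files the authors deposited hold raw, whole-number read counts for Entrez gene identifiers. Per the submitters' processing notes, FastQC 0.11.3, Subread and featureCounts were used with mm10; the series text names TopHat and HTSeq instead, so the counting tool, strand setting and treatment of shared reads are uncertain. Per the labels' protocols, libraries were stranded and read as single ends. The series text gives 8 mice per genotype and the sample labels 16; the labels were followed.

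Runs were summed per mouse, to 28.8 to 33.8 mega counts, so that 1 CPM stands for 31.8 reads at the median depth. Symbols were matched for 25275 of 27179 identifiers, and those without one held 0.766% of the counts. CPM values use TMM factors. Levels per kb use the longest protein-coding transcript of the GENCODE annotation of GRCm38. Reads were counted per Entrez gene, so these lengths are approximate. For Egr1 the length used, 4484 bases, is longer than the RefSeq span of the gene, so its level per kb may be too low.

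Genes were filtered by filterByExpr (16776 of 23165 with a count) and tested with edgeR 4.0.16 in R 4.3.3 (robust quasi-likelihood F test; terms lane set, sex and genotype; Benjamini-Hochberg over all genes tested, threshold 0.05). The SE is the absolute log2 fold change over the square root of F. The interaction came from a fit of the 4 genotype and sex groups with lane set. Correlations used log2 CPM with a prior count of 2 and two-sided permutation tests with 100000 resamples. The edgeR fit of genotype was tested on simulated counts. Alternatives were DESeq2 1.42.0, limma 3.58.1 (voom), RLE factors, no filter, no lane set term, each lane set alone, a cortical covariate, cage as a block and each mouse left out in turn.

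Named genes were all members, Cyfip2, En2, in each pathway list the genes called or otherwise the pair with the smallest p, and the 10 most alike genes; further genes of the lists were chosen after their values were seen. The members and lists were chosen with earlier results of these data known.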

Additional observations from a re-analysis of the deposited data

Results flagged for a closer look

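In 4 of 40 sets of 8 mice (10 members in each genotype and sex), the highest mouse stood apart by more than Dixon's critical value of 0.526 for the gap to the next mouse over the range of the group. For normally distributed values, chance alone gives about 1 in 20 such sets. The rule was run on CPM, which reach further up than down (Fos over 32 mice: mean 5.21, median 3.53 CPM). That rate therefore need not hold here. The members also move together between mice, so the sets are not independent. Of the 4 sets, 3 are the same animal, mouse 30, among the N/- females. It had 13.92 CPM of Fos, with 6.888 CPM in the next mouse (gap over range 0.5847). Its Arc was 138.8 CPM, with 76.51 CPM in the next mouse (gap over range 0.6814), and its Nr4a1 was 63.49 CPM, with 43.32 CPM in the next mouse (gap over range 0.5335). Mouse 16, an N/- male, had 60.81 CPM of Junb, with 40.51 CPM in the next mouse (gap over range 0.5349). The cause was not tested.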

How the results depend on the processing

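No member passed the threshold in any comparison under any alternative run. Of 350 recomputed member values, 310 kept their direction and 40 changed sign; of 1280 with 1 mouse left out, 113 changed sign. The smallest adjusted p of a member was 0.182 (lane set), and 0.599 for genotype, 0.784 for sex and 0.9997 for the interaction. The genotype count stayed at 2 except in lane set B alone, with 5 (Cyfip2, En2, Pak7, Hkdc1 and Lrrc55, named after their values were seen). The sex count was 7 in lane set A alone. The lane set count of 27 became 8 without mouse 3, 100 with the cortical covariate and 92 with DESeq2, and ran from 8 (without mouse 3) to 72 (without mouse 15) with 1 mouse left out. Causes were not tested. The relations of Fos that passed numbered 9, and 8 or 9 with another prior count, with group means removed or without mice 8 and 30, 8 in lane set A and 6 in lane set B; no relation with a score passed by r under any alternative. Cyfip2 and En2 were called by genotype in all 11 other settings and with each of 32 mice left out, whereas Csrnp1 was called by lane set in 5 of 6 and 17 of 32.

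Signs changed as follows (log2 fold changes). For N/- over N/N, lane set A alone gave 0.15 for Junb and 0.093 for Egr4. Lane set B alone gave -0.13 for Egr2, -0.013 for Arc, -0.10 for Npas4, -0.051 for Nr4a1 and -0.065 for Ier2. The cortical covariate gave 0.093 for Junb. Cage as a fixed block gave 0.16 for Junb, 0.13 for Egr1 and 0.083 for Egr4. Voom gave -0.086 for Egr2, -0.029 for Arc and -0.090 for Npas4. Cage as a random effect gave 0.0070 for Junb and -0.022 for Npas4. Without mouse 3, Junb had 0.00099, Egr2 -0.0055 and Npas4 -0.048. For males over females, Egr2 had 0.12 without the lane set term and 0.046 with voom. Lane set A alone gave 0.63 for Egr2, 0.26 for Npas4 and 0.15 for Ier2. Lane set B alone gave -0.59 for Fos, -0.011 for Fosb, -0.18 for Egr1, -0.26 for Arc and -0.33 for Nr4a1. For the interaction, lane set A alone gave 1.22 for Npas4 and -0.43 for Ier2. Lane set B alone gave -1.84 for Fos, -0.22 for Junb, -0.11 for Egr1, -0.96 for Egr2, -0.78 for Arc and -0.42 for Nr4a1. Without mouse 3, Npas4 had an interaction of 0.050. For lane set A over B, Npas4 had 0.0030 with voom and 0.066 without mouse 3.

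With 1 mouse left out, ranges that crossed 0 were, for N/- over N/N, -0.11 to 0.11 (Arc), -0.19 to 0.16 (Egr2), -0.098 to 0.038 (Junb), -0.19 to 0.15 (Npas4) and -0.013 to 0.17 (Nr4a1). For males over females they were -0.13 to 0.12 (Egr2), -0.0032 to 0.31 (Fos) and -0.22 to 0.079 (Npas4). For the interaction they were -0.18 to 0.62 (Fos) and -0.36 to 0.25 (Npas4), and for lane set A over B -0.090 to 0.050 (Junb), -0.17 to 0.17 (Npas4) and -0.0093 to 0.16 (Nr4a1). No paired analysis was possible by mouse number because each number occurs once. Cage as a fixed block, with both genotypes in 10 cages (21 mice), is the comparison within cages, and it called 2 genes by genotype and no member. Depth limits Ier2, Fos and Egr2 most, with as few as 54, 58 and 49 reads in a mouse.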

Other observations

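At the other end of the likeness to the members stood a few genes that are also known to be induced by activity. Of 14659 genes ranked by r, Nr4a2, a nuclear receptor close to Nr4a1, was at rank 14580 (r = -0.45), Bdnf at rank 14235 (r = -0.34) and Nrn1 at rank 14010 (r = -0.31). These 3 genes were singled out after their values were seen. The part of cortical RNA in the punches in these r was not tested.

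Genes with the smallest p for the genotype by sex interaction in the pathway lists leaned the same way as Egr4. Dusp5, a phosphatase of ERK, had a log2 difference (effect of N/- over N/N in males minus that in females) of 0.53 (SE 0.17, unadjusted p = 0.0051, adjusted p = 1, edgeR). It was 0.42 (SE 0.15) for Vgf, which encodes a secreted neuropeptide precursor, and 0.26 (SE 0.10) for Egr3. In females alone the log2 fold change of N/- over N/N was -0.34 (SE 0.13) for Dusp5, -0.37 (SE 0.11) for Vgf and -0.16 (SE 0.07) for Egr3, each with an adjusted p of 0.9995 (edgeR). None was called.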
